A study of Mus musculus with 10 samples.

Results

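The coagulation and plasminogen genes described here are 9: the plasminogen activators Plau and Plat, the urokinase receptor Plaur, the activator inhibitor Serpinb2, the clotting genes F3, F10 and F13a1, and the anticoagulant receptors Thbd and Procr. They were taken by name, with every probe set that the platform annotation gives to 1 of these genes alone, which made 13 probe sets of the 34945 with a single gene and 9 of the 18193 genes measured. RNA of the distal colon of each mouse was hybridised to an Affymetrix array covering the mouse genome, in a comparison of colitic with non-inflamed tissue. All 10 mice were Rag1-/- on the C57BL/6 strain, so that they lacked T and B cells of their own, and all received sorted cells at 10 weeks of age. Colons were taken 2 to 3 months later, at an age of 4 to 5 months. Naïve T cells had been injected into 3 mice with severely inflamed and 3 with moderately inflamed colons, and Tregs into 4 control mice with non-inflamed colons. Inflammation and the injected cell type therefore cannot be told apart in the comparison with control.

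Clotting starts when tissue factor on cells outside the vessel meets factor VII of the blood, and the pair activates factor X, which turns prothrombin into thrombin. Thrombin makes fibrin, which factor XIII cross-links, and the plasminogen activators turn plasminogen into plasmin, which dissolves fibrin again. Thrombomodulin and the endothelial protein C receptor divert thrombin to the activation of protein C, which slows clotting, and in the inflamed bowel both clotting and fibrinolysis are known to be altered.

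Values are on the log2 scale as deposited, so that a difference of 1 is a doubling, and each gene was read at its brightest probe set. In inflamed colons, the 6 severe and moderate ones together, 5 of the 9 genes were higher than in control colons (F10, Plaur, Plat, Procr and Plau), 1 was lower (Thbd), and 3 did not pass (F3, Serpinb2 and F13a1) at a limma p of 0.05 after Benjamini-Hochberg adjustment for every gene on the array. Of all genes tested, 39.7% were called, 18.5% higher and 21.2% lower. The median log2 difference was 1.31 over the 9 genes and 0.03 over all genes. The 9 genes were chosen with earlier results of these data known, so their counts and median describe the chosen genes only. For the 5 genes that rose, all 6 inflamed colons lay above all 4 control colons, as they did for 14.6% of all genes. For Thbd, all 6 lay below, as they did for 17.1% of all genes. In whole tissue, fewer cells of a type and less RNA per cell cannot be told apart.

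**Figure D1:**
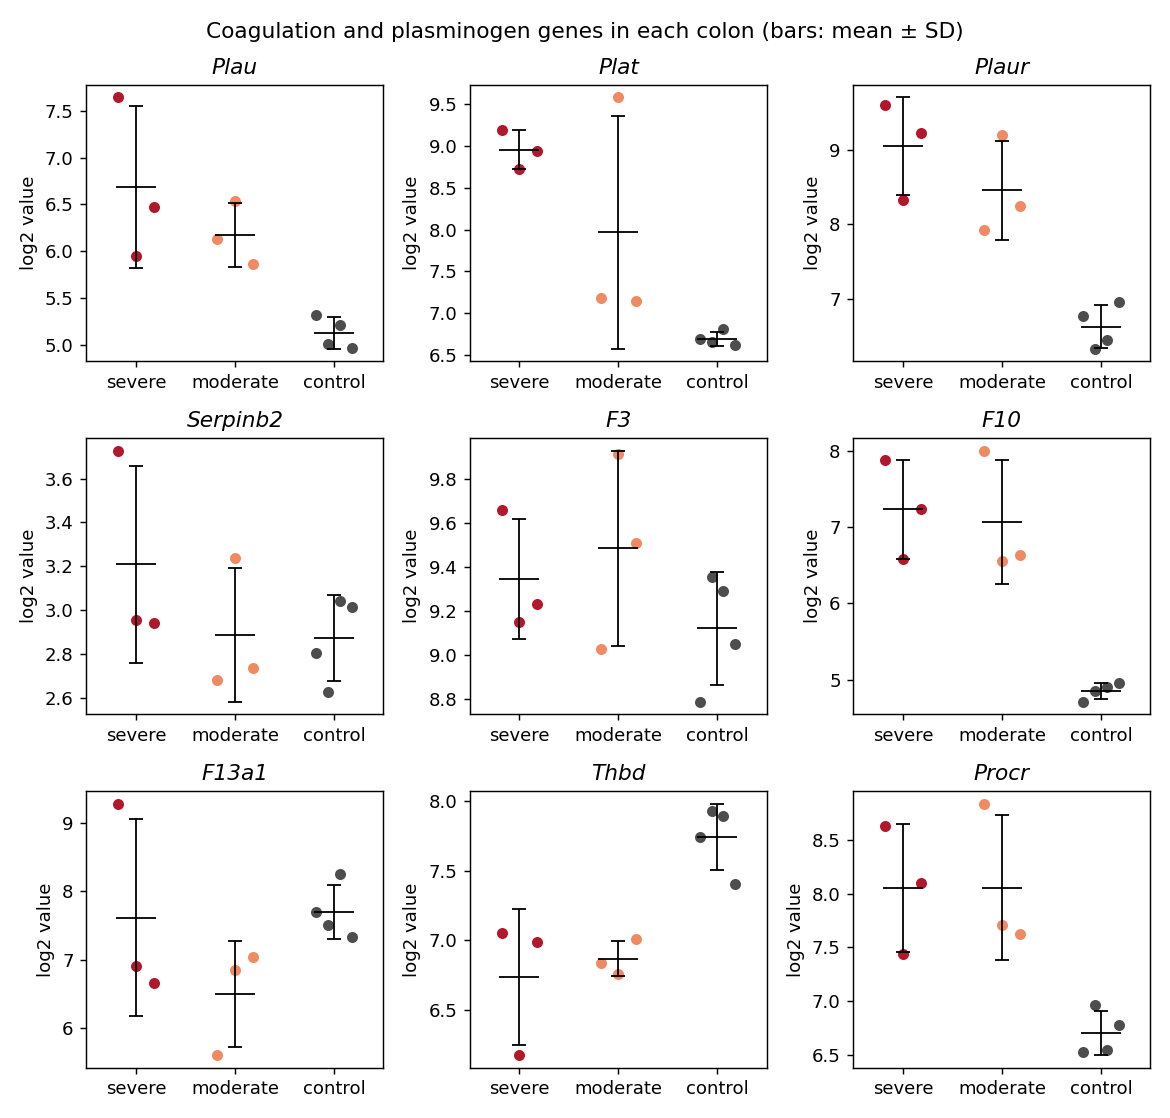
Log2 value of each of the 9 genes at its brightest probe set (vertical axes, each with its own range) in 3 severe, 3 moderate and 4 control colons. Points are single mice, and bars give the mean and SD. For F10 the inflamed colons lay at 6.55 or above and the control colons at 4.95 or below, while for Thbd the inflamed colons lay at 7.05 or below and the control colons at 7.40 or above.

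Both plasminogen activators and the urokinase receptor rose in inflamed colons. Plaur, the membrane-anchored receptor that holds urokinase at the cell surface, was at 9.60, 8.33 and 9.23 in severe colons, 7.92, 9.21 and 8.25 in moderate colons and 6.77, 6.33, 6.45 and 6.96 in control colons. Its lowest inflamed colon lay 0.96 above its highest control colon. The difference between inflamed and control was 2.13 (SE 0.31, 95% confidence interval 1.46 to 2.80, 4.38-fold, limma adjusted p = 0.000206). Plaur has 1 probe set, and it passed in severe against control (2.43, adjusted p = 0.000287) and in moderate against control (1.83, adjusted p = 0.00225).

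The stretch around a start of Plaur is shown because it is one of 3 promoter windows of genes that rose, with the motifs found in it in capitals. It lies at chr7:24462233-24462532 on the plus strand (GRCm38.p6, RefSeq), with 250 bases before and 50 after the start. That start lies inside the annotated gene, which begins at 24460937. The window holds 1 AP-1 motif, TGACTCA, whose first base lies 69 bases before the start. It also holds 3 GC boxes that share or adjoin each other, the second and the third overlapping by 1 base.
Plaur promoter: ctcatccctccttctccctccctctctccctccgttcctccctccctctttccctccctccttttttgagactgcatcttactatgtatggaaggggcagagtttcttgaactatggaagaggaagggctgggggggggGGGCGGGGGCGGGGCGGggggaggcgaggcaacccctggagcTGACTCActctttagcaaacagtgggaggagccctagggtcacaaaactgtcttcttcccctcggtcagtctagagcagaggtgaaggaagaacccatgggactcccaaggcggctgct

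Plau, the gene of urokinase, which cleaves plasminogen to plasmin, was at 7.64, 5.95 and 6.47 in severe colons, 6.13, 6.54 and 5.86 in moderate colons and 5.32, 5.01, 5.21 and 4.96 in control colons. All inflamed colons lay above the control colons, and severe replicate 1 stood 1.10 above the next. The inflamed minus control difference was 1.31 (SE 0.29, 95% confidence interval 0.68 to 1.94, 2.48-fold, limma adjusted p = 0.00344). In severe against control the difference was 1.56 (adjusted p = 0.00327), and in moderate against control 1.05 (adjusted p = 0.0309). The moderate call did not hold without control replicate 2, 3 or 4 or moderate replicate 1 or 2, where adjusted p lay between 0.0571 and 0.11. With the methods' t-test, the severe call had an adjusted p of 0.0504.

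Plat, the tissue-type activator, which works mainly on fibrin-bound plasminogen, was at 9.19, 8.73 and 8.94 in severe colons, 7.18, 9.58 and 7.15 in moderate colons and 6.69, 6.66, 6.81 and 6.62 in control colons. The moderate group was split, with 1 mouse above all severe colons and the other 2 closer to the control colons than to the severe ones, although all 3 lay above every control colon, as they did for 18.4% of all genes. Inflamed exceeded control by 1.77 (SE 0.45, 95% confidence interval 0.79 to 2.75, 3.41-fold, limma adjusted p = 0.0079), and severe exceeded control by 2.26 (4.79-fold, adjusted p = 0.0036). Moderate minus control was 1.28 and did not pass (adjusted p = 0.0661). It passed without any 1 of the moderate colons (0.47 without replicate 2, adjusted p = 0.021; 1.67 without replicate 1 and 1.69 without replicate 3).

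Each activator has a second, dimmer probe set, neither of which passed when all 34945 probe sets were tested, of which 35.8% were called. Plau 1422138_at differed by 0.26 (inflamed 4.20 to 4.76 with a median of 4.32, control 4.01 to 4.20, adjusted p = 0.069). Plat 1458553_at differed by 0.24 (inflamed 4.02 to 4.47 with a median of 4.28, control 3.94 to 4.20, adjusted p = 0.0848). The rise of both activators is thus carried by 1 probe set each, 1422139_at and 1415806_at.

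Serpinb2, a serpin that inhibits both activators, was at 3.73, 2.96 and 2.94 in severe colons, 2.68, 3.24 and 2.74 in moderate colons and 2.81, 2.63, 3.04 and 3.02 in control colons. All 10 values lay below the lower quartile of their own array, and the groups overlapped. The inflamed minus control difference was 0.18 (95% confidence interval -0.23 to 0.58, limma adjusted p = 0.483).

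**Figure D2:**
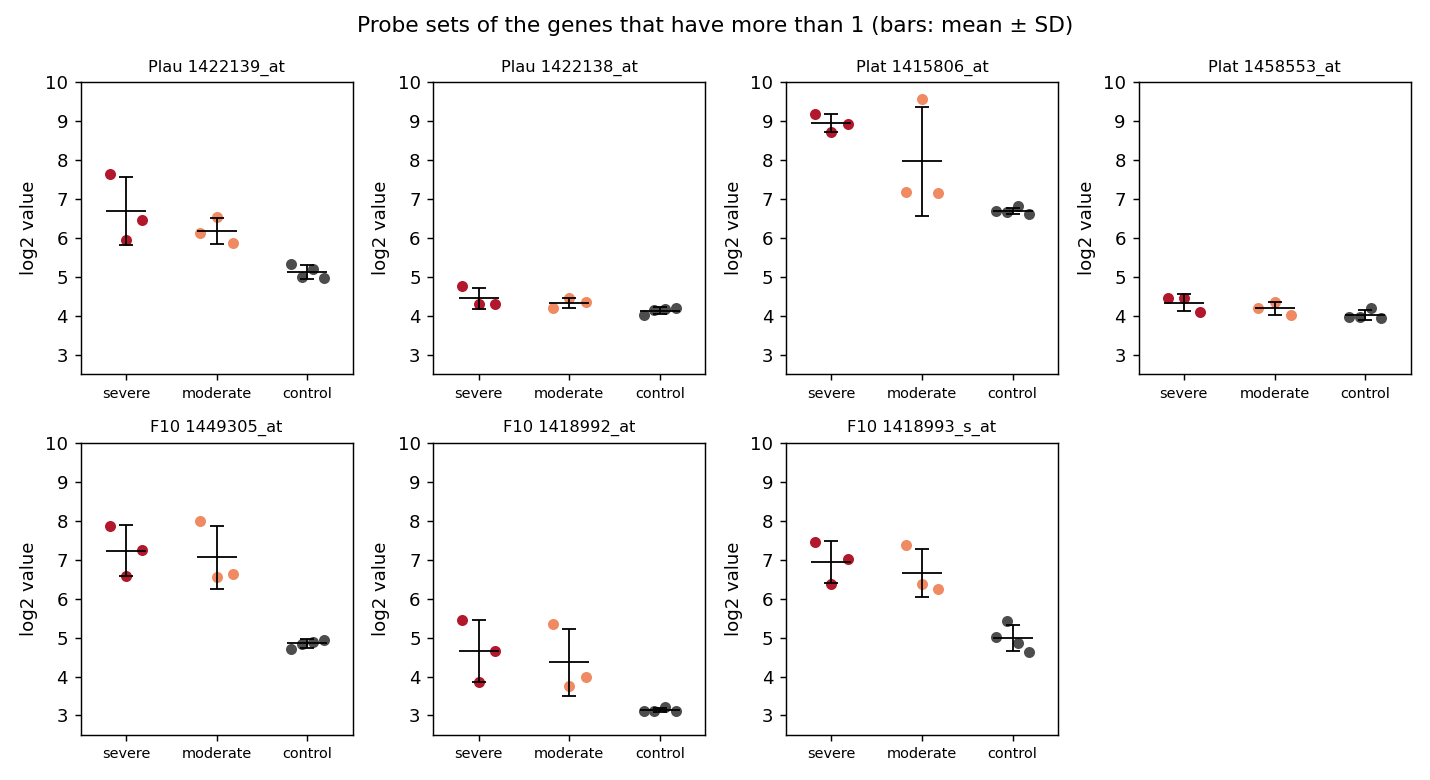
Log2 values of the 7 probe sets of Plau, Plat and F10, the genes with more than 1 probe set, on 1 common vertical axis, for 3 severe, 3 moderate and 4 control colons. Points are single mice, and bars give the mean and SD. All 3 F10 probe sets separate inflamed from control colons, while the dim probe sets of Plau and Plat stay between 3.94 and 4.76 in all groups.

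Among the clotting genes, F10 rose and F3 and F13a1 did not pass. F10, the gene of factor X, which is made mainly by the liver, was at 7.88, 6.58 and 7.24 in severe colons, 8.01, 6.55 and 6.63 in moderate colons and 4.71, 4.85, 4.90 and 4.95 in control colons. The gap between the lowest inflamed and the highest control colon was 1.60, the widest of the 6 genes whose groups did not overlap. Inflamed exceeded control by 2.30 (SE 0.29, 95% confidence interval 1.67 to 2.93, 4.92-fold, limma adjusted p = 8.26e-05). Severe minus control was 2.38 (adjusted p = 0.000443) and moderate minus control 2.22 (adjusted p = 0.00102). The other 2 probe sets of F10 passed as well. Probe set 1418993_s_at was 1.82 higher (inflamed 6.25 to 7.45, median 6.69, against control 4.62 to 5.42, adjusted p = 0.000147). Probe set 1418992_at was 1.38 higher (inflamed 3.76 to 5.46, median 4.33, against control 3.10 to 3.21, adjusted p = 0.00475), with all 4 control values below the lower quartile of their arrays.

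The window around the start of F10 is shown as the contrast among the genes that rose, since none of the motifs searched was found in it. It lies at chr8:13037058-13037357 on the plus strand (GRCm38.p6, RefSeq) and has no capitals.
F10 promoter: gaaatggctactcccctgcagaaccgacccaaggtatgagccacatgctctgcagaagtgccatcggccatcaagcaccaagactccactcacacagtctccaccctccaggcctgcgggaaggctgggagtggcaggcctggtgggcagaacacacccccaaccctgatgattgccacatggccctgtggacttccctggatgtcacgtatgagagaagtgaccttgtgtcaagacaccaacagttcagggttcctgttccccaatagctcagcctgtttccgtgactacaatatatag

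F3, the gene of tissue factor, the membrane protein that starts clotting, was at 9.66, 9.15 and 9.23 in severe colons, 9.03, 9.91 and 9.51 in moderate colons and 8.79, 9.35, 9.29 and 9.05 in control colons. The groups overlapped, and only 3 of the 6 inflamed colons lay above the highest control colon. The difference was 0.30 (SE 0.18, 95% confidence interval -0.09 to 0.68, limma adjusted p = 0.208), so that a rise of up to 0.68 lies within the interval. Its promoter window is printed because it holds the most motifs of the windows at hand, although the gene did not pass. It lies at chr3:121723287-121723586 on the plus strand (GRCm38.p6, RefSeq), and its capitals mark 2 AP-1 motifs, TGAATCA and TGAGTCA, and 3 GC boxes, the middle one on the other strand.
F3 promoter: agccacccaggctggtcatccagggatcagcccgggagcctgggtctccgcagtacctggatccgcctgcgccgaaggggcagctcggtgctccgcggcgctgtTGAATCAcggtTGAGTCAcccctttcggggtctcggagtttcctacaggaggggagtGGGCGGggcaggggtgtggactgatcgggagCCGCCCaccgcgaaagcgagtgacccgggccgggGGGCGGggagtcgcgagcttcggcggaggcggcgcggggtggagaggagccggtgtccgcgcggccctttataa

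F13a1, the catalytic subunit of factor XIII, a gene of macrophages and megakaryocytes, was at 9.27, 6.91 and 6.66 in severe colons, 5.60, 6.84 and 7.04 in moderate colons and 7.69, 7.50, 8.25 and 7.33 in control colons. Of the inflamed colons, 5 lay below all control colons, and severe replicate 1 lay above all of them. The inflamed minus control difference was -0.64 (SE 0.53, 95% confidence interval -1.80 to 0.52, limma adjusted p = 0.371). Without severe replicate 1 it was -1.08, with an adjusted p of 0.0101. Severe minus control was -0.08 (adjusted p = 0.934) and moderate minus control -1.20 (adjusted p = 0.143), the second with all 3 moderate colons below all control colons, as for 19.9% of all genes. The moderate difference passed without severe replicate 1 (adjusted p = 0.0186) and when only moderate and control colons entered the fit (adjusted p = 0.027). In severe replicate 1 the mean over the macrophage and monocyte markers was also the highest of the 10 colons, at 8.64. Moderate replicate 1 had the next highest mean, 7.67, with the lowest F13a1 value, 5.60. The control means, 6.36 to 6.60, lay below those of all inflamed colons, while 5 inflamed colons lay below all control colons in F13a1. The part of these cells in the F13a1 values was not tested.

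The receptors of the protein C pathway went opposite ways. Thbd, the gene of thrombomodulin, the thrombin receptor of endothelium, was at 7.05, 6.17 and 6.99 in severe colons, 6.84, 6.76 and 7.01 in moderate colons and 7.74, 7.93, 7.89 and 7.40 in control colons. All inflamed values lay below all control values, and severe replicate 2 was the lowest. Thbd fell by 0.94 in inflamed colons (SE 0.17, 95% confidence interval -1.30 to -0.57, 1.92-fold lower, limma adjusted p = 0.000888). The fall was -1.003 in severe against control (adjusted p = 0.00297) and -0.87 in moderate against control (adjusted p = 0.00815). Of the endothelial markers, 6 of 11 were lower in inflamed colons and 0 were higher (4 to 8 lower when single colons were left out), against 21.2% lower and 18.5% higher of all genes. The mean of these markers ran between 5.34 and 5.71 in inflamed colons and between 5.81 and 6.04 in control colons. Their part in the fall of Thbd was not tested.

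Procr, the endothelial protein C receptor, which presents protein C to thrombin bound by thrombomodulin, was at 8.63, 7.44 and 8.10 in severe colons, 8.83, 7.71 and 7.62 in moderate colons and 6.52, 6.96, 6.55 and 6.78 in control colons. The inflamed and control colons did not overlap. The difference was 1.35 (SE 0.26, 95% confidence interval 0.79 to 1.91, 2.55-fold, limma adjusted p = 0.00134), with 1.35 in severe against control (adjusted p = 0.0068) and 1.35 in moderate against control (adjusted p = 0.00834). With the methods' t-test, the moderate call had an adjusted p of 0.0528. The direction was opposite to that of Thbd on the same arrays.

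The Procr window is shown beside that of Plaur because both hold the AP-1 motif spelled the same way, TGACTCA, here 154 bases before the start. It lies at chr2:155750967-155751266 on the plus strand (GRCm38.p6, RefSeq), with the motif in capitals. The start used here lies inside the annotated gene, which begins at 155751125.
Procr promoter: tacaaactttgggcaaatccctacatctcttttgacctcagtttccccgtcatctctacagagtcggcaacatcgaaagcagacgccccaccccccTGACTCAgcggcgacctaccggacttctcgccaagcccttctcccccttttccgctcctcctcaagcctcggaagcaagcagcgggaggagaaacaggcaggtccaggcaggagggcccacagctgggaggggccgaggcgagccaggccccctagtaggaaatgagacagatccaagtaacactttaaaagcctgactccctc
Of the 9 genes, 6 had a window in the RefSeq table (8 windows, since Serpinb2 and F13a1 have 2 each), and Plau, Plat and Thbd had none. Searched on both strands, AP-1 (TGANTCA) was found in 5 of the 8 windows and in 7.81% of 32851 windows of all genes, in Plaur, Procr, F3 and, as 1 site covered by both of its overlapping windows, Serpinb2. The GC box (GGGCGG) was found in 2 windows and in 35.7% of all, and the STAT motif TTCNNNGAA in both Serpinb2 windows and in 8.3% of all. The NF-kB motif (GGGA, any base and TTTCC) was in 0 of the 8 and in 0.411% of all. Plaur and Procr hold AP-1 and rose, while F10 holds none and rose. F3 and Serpinb2 hold AP-1 and did not pass, Serpinb2 with values below the lower quartile on all 10 arrays. A part of these letters in the changes was not tested, and a match is a description of the sequence only.

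Set against control separately, the 2 grades of inflammation gave nearly the same calls. In severe against control 5 genes were higher and 1 lower, against 16.1% higher and 18.9% lower of all genes (35% in all). In moderate against control 4 were higher and 1 lower, against 13.2% higher and 16.7% lower of all genes (29.9% in all), the gene that did not pass here being Plat. These comparisons share the 4 control colons. Between severe and moderate colons 0 of the 9 genes passed, as did 0% of all genes, by limma with Benjamini-Hochberg adjustment. At an unadjusted p under 0.05 the counts were 0 of the 9 genes and 922 of 18193 genes, and the methods' t-test called 0 of the 9. The severe and moderate ranges overlapped for all 9 genes, while over all genes 3.81% lay wholly higher and 4.18% wholly lower in severe colons. The severe minus moderate difference was 0.99 for Plat (95% confidence interval -0.13 to 2.10), 0.60 for Plaur (-0.20 to 1.39), 0.51 for Plau (-0.25 to 1.28) and 1.12 for F13a1 (-0.23 to 2.47). For F10 it was 0.17 (-0.67 to 1.004), for Thbd -0.13 (-0.61 to 0.35) and for Procr 0.00 (-0.75 to 0.75). Leaving out single colons moved the Plat difference between 0.58 and 1.79, Plaur between 0.32 and 0.97, Plau between 0.0362 and 0.88 and F13a1 between 0.29 and 1.60. The intervals include changes of 1.5-fold or more either way for F10 and Procr, so that equal levels are not shown. Without moderate replicate 2, the colon with the highest Plat, Plat differed between the grades by 1.79 (limma adjusted p = 0.000999). This colon stands out by its Plat value itself, so that fit cannot test whether the grades differ.

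**Figure D3:**
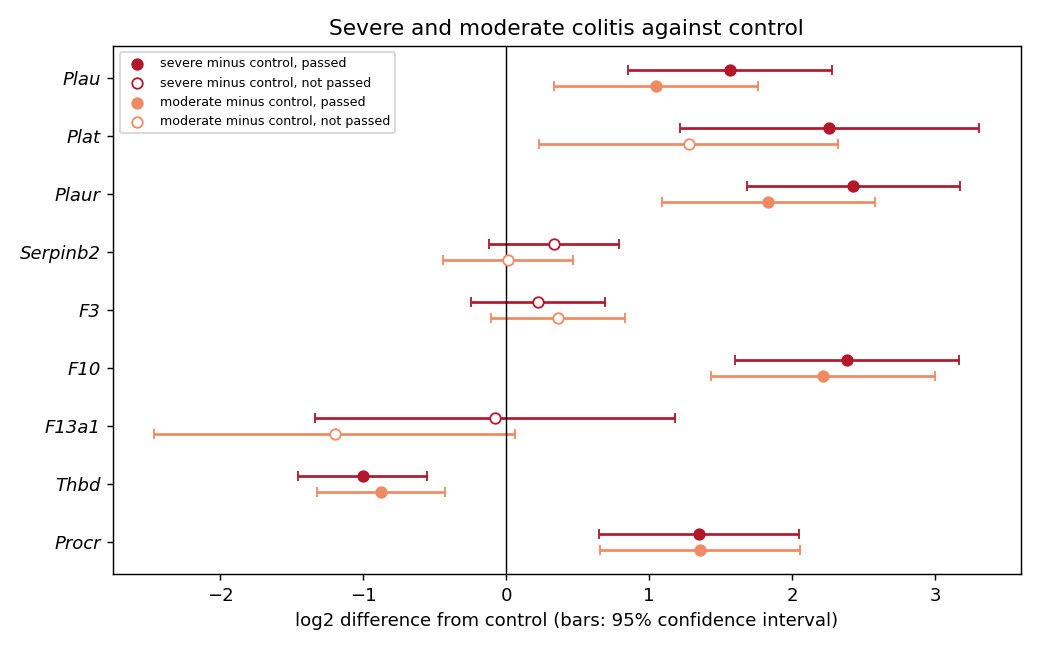
Log2 difference from control for severe (upper of each pair) and moderate colons (lower), with 95% confidence intervals from limma. Filled points passed at an adjusted p of 0.05. The paired intervals overlap for every gene, and Thbd alone lies below 0 with both filled.

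Within the 6 inflamed colons, the genes that rose did not follow 1 common order. Plaur was highest in severe replicate 1 and lowest in moderate replicate 1, with an order from severe 1, severe 3, moderate 2, severe 2 and moderate 3 to moderate 1 that was the same as the order of the mean over 8 neutrophil markers. F10 and Procr were instead highest in moderate replicate 1, followed by severe 1 and severe 3. Moderate replicate 1, which gave the lowest Plaur of the inflamed colons (7.92), thus gave their highest F10 (8.01) and Procr (8.83). F10 and Procr shared their 3 highest colons with the macrophage and T cell marker means, where severe 1 came first and moderate 1 after it. Plat followed none of these orders, with moderate replicate 2 highest and the other 2 moderate colons lowest. These orders were noticed after the values were seen and cover 6 mice, 1 array each, and they are given as a description.

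**Figure D4:**
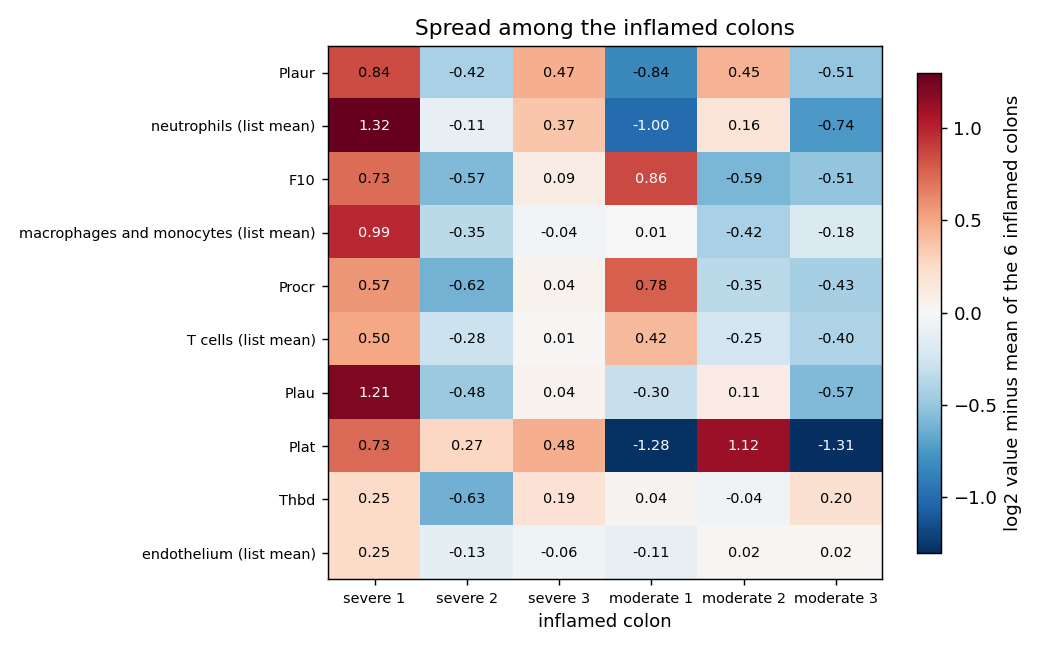
Log2 value of 6 of the genes and mean log2 value of 4 marker lists in each inflamed colon, minus the mean over the 6 inflamed colons (colour and printed value, 3 severe colons at left and 3 moderate at right). Moderate 1 is -0.84 for Plaur and -1.002 for the neutrophil markers, and 0.86 for F10 and 0.78 for Procr.

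Markers of the infiltrating cells moved on the same arrays, where 18.5% of all genes were higher and 21.2% lower in inflamed colons. Neutrophil markers were higher in inflamed colons for 8 of 8 measured (S100a8, a neutrophil calcium-binding protein, by 7.66). Their mean lay between 6.63 and 8.96 in inflamed colons and between 4.24 and 5.03 in control colons. Of these, Mmp8 did not pass without any 1 of the control colons, severe replicate 2 or moderate replicate 2 (limma adjusted p up to 0.0941). Cxcr2 did not pass without control replicate 4 (adjusted p = 0.0525). Of the macrophage and monocyte markers, 8 of 10 were higher (Ccr2, a chemokine receptor of monocytes, by 2.36). Their means were 7.23 to 8.64 in inflamed and 6.36 to 6.60 in control colons. Cd163 of this list differed by -1.11 (limma adjusted p = 0.144) and passed as lower without severe replicate 1 (-1.46, adjusted p = 0.0251). Mrc1 differed by 0.19 and did not pass. Adgre1, 1 of the 8, did not pass without control replicate 2 (adjusted p = 0.0502). T cell markers were higher for 6 of 6 (Cd3g by 4.36), with means of 6.39 to 7.29 in inflamed and 4.79 to 5.02 in control colons. Platelet markers were higher for 2 of 9 (Gp1bb by 1.22, and Clec1b), a share near that of all genes. Without control replicate 2 they were higher for 4, which added Ppbp (adjusted p = 0.0283) and Gp9 (adjusted p = 0.0331). The platelet marker means were 5.48 to 5.92 in inflamed and 5.23 to 5.43 in control colons. Smooth muscle markers were lower for 8 of 8 (Myh11 by -2.27) and fibroblast markers for 5 of 9 (Dpt by -1.79). The fibroblast marker Col3a1 did not pass without control 1, 2 or 3, severe 2 or 3 or moderate 1 or 2 (adjusted p up to 0.0779). Col1a2 passed as lower without severe replicate 1 (-0.545, adjusted p = 0.0056). The endothelial marker with the largest fall was Tek, at -1.67. Epithelial markers were higher for 2 of 10, also near the share of all genes (Cldn7 by 0.27, and Krt19, which did not pass without any 1 of 7 colons, adjusted p up to 0.133). Without severe replicate 1 they were higher for 3, which added Vil1 (adjusted p = 0.0038). Their mean was 12.98 to 13.18 in inflamed and 12.96 to 13.02 in control colons. Of 5 genes listed as hepatocyte markers, 2 were lower (Ttr by -2.03) and 0 higher, or 1 higher without severe replicate 1 (Ahsg, 0.29, adjusted p = 0.0191). In control colons Ttr had a mean of 10.64, against 4.42 to 5.42 for the others of this list. Which cells gave the Ttr RNA was not tested. Mesothelial markers passed for 0 of 5 (brightest Upk1b, 0.37, adjusted p = 0.0665). Upk1b passed without control replicate 4 (adjusted p = 0.0474) or moderate replicate 1 (adjusted p = 0.0284) and Msln without moderate replicate 2 (adjusted p = 0.0442), and in severe against control both were higher (Msln by 0.68, adjusted p = 0.000241, and Upk1b by 0.54, adjusted p = 0.0185). Of the others, mast cell markers were higher for 2 of 6 (Cpa3 by 0.64, not past the threshold without any 1 of 6 colons, adjusted p up to 0.105) and lower for 1 (Kit by -1.63). No marker was below the lower quartile on all 10 arrays. On most arrays some were: Ppbp and the mast cell marker Fcer1a on 9, the mesothelial marker Lrrn4 on 8 and the endothelial marker Tie1 on 6. The part of these cells in the rises of Plaur, Plau, Plat, F10 and Procr was not tested.

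The profiles most like those of the genes that changed were sought over all 10 arrays by the root mean square distance of log2 values, each gene minus its own mean. Nearest to F10 were Dram1 (0.14) and Cd3d, a signalling chain of the T cell receptor (0.15), and nearest to Procr AI467606 (0.14) and Dock2, a guanine nucleotide exchange factor of leukocytes (0.16). Plau had C5ar1, the receptor of complement C5a (0.23), and Adssl1 (0.24) nearest, and Plaur had Wfdc17 (0.32) and Hcar2 (0.32). For Plat they were Muc1, a membrane mucin (0.27), and Rel, an NF-kB subunit (0.34), and for Thbd Bmp4, a secreted growth factor (0.14), and Rassf8 (0.15). The 10 arrays share the division into inflamed and control, which any gene with a like difference follows.

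Of 40 further genes of clotting and fibrinolysis, 36 were measured, and 6 were higher and 6 lower in inflamed colons, shares of a like size to the 18.5% and 21.2% of all genes, with a median difference of 0.02. Among 16 clotting factors and cofactors 1 rose and 3 fell. F12, which starts the contact pathway, passed as higher without severe replicate 1 (adjusted p = 0.0426) or 3 (adjusted p = 0.0461), and the kininogen gene Kng1 without control replicate 4 (adjusted p = 0.045). The gene that rose with all colons in the fit was F7, the gene of factor VII, the partner of tissue factor, which was at 6.78, 5.43 and 6.15 in severe colons, 6.82, 5.17 and 5.17 in moderate colons and 4.01, 4.14, 3.97 and 3.72 in control colons (difference 1.96, limma adjusted p = 0.000674). Like F10, F7 was highest in moderate replicate 1 and severe replicate 1. F7, F10 and Proz, the gene of protein Z, neighbour each other in the RefSeq annotation. Proz, which was added after the values were seen, was at 3.76 to 4.42 in inflamed and 3.70 to 4.04 in control colons and differed by 0.19 (adjusted p = 0.294).

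The enzymes that give clotting factors their calcium-binding residues fell. Vkorc1, which recycles vitamin K, was 1.53 lower (between 8.34 and 8.85 in inflamed and between 9.86 and 10.22 in control colons, limma adjusted p = 3.07e-06). Ggcx, the carboxylase that uses vitamin K, differed by -0.46 (adjusted p = 0.00479). F5, the cofactor of factor X, differed by -0.26 (adjusted p = 0.0118) at a mean of 3.56 in inflamed and 3.82 in control colons. It was dim, below the lower quartile on 8 of the 10 arrays. The von Willebrand factor gene Vwf differed by -0.28 (adjusted p = 0.384), and the fibrinogen chains Fga, Fgb and Fgg by -0.14, 0.27 and 0.02, none past the threshold in inflamed against control. Vwf passed there without severe replicate 1 (-0.47, adjusted p = 0.0151), and Fgb passed in severe against control alone (0.41, adjusted p = 0.0357). Of the 16, 6 were below the lower quartile on all 10 arrays.

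Of 8 anticoagulant genes, 2 were higher and 3 lower, against 18.5% higher and 21.2% lower of all genes. Serpina10, the protein Z-dependent inhibitor of activated factor X, was at 8.998, 8.23 and 8.85 in severe colons, 9.90, 8.32 and 7.86 in moderate colons and 4.98, 5.27, 4.81 and 5.05 in control colons. Its difference of 3.67 (12.7-fold, limma adjusted p = 8.21e-06) was larger than that of any of the 9 genes, and moderate replicate 1 again gave the highest value. Proc, the gene of protein C, was 0.41 higher (4.89 to 5.53 in inflamed and 4.53 to 4.80 in control colons, adjusted p = 0.0195), but did not pass without control replicate 2 (adjusted p = 0.0643) or 4 (adjusted p = 0.0508). Tfpi2, a Kunitz-type inhibitor of plasmin and other proteases, fell by 2.38 (5.26 to 6.48 in inflamed and 7.96 to 8.54 in control colons, adjusted p = 1.21e-05). Tfpi, the inhibitor of tissue factor and factor X, differed by -0.79 (adjusted p = 0.000289), and Pros1, the protein S cofactor of protein C, by -0.78 (adjusted p = 0.00245).

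On the fibrinolytic side, 2 of 9 measured genes were higher and 0 lower, against 18.5% higher and 21.2% lower of all genes. Without control replicate 4, 1 was lower (Serpini1, -0.31, adjusted p = 0.0432). The higher ones were Anxa2 and S100a10, which together form a plasminogen receptor at the cell surface, with differences of 0.61 (adjusted p = 0.000182) and 0.33 (adjusted p = 0.00249). Plg, the plasminogen gene itself, differed by 0.02 (mean 4.46 in inflamed and 4.44 in control colons, adjusted p = 0.914). Of the protease-activated receptors, F2rl3, a thrombin receptor of platelets, was 0.42 higher (adjusted p = 0.00535), though its inflamed and control values overlapped, and the other 2 measured did not pass. Serpine2, Cpb2 and F2rl1 were not analysed here.

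**Figure D5:**
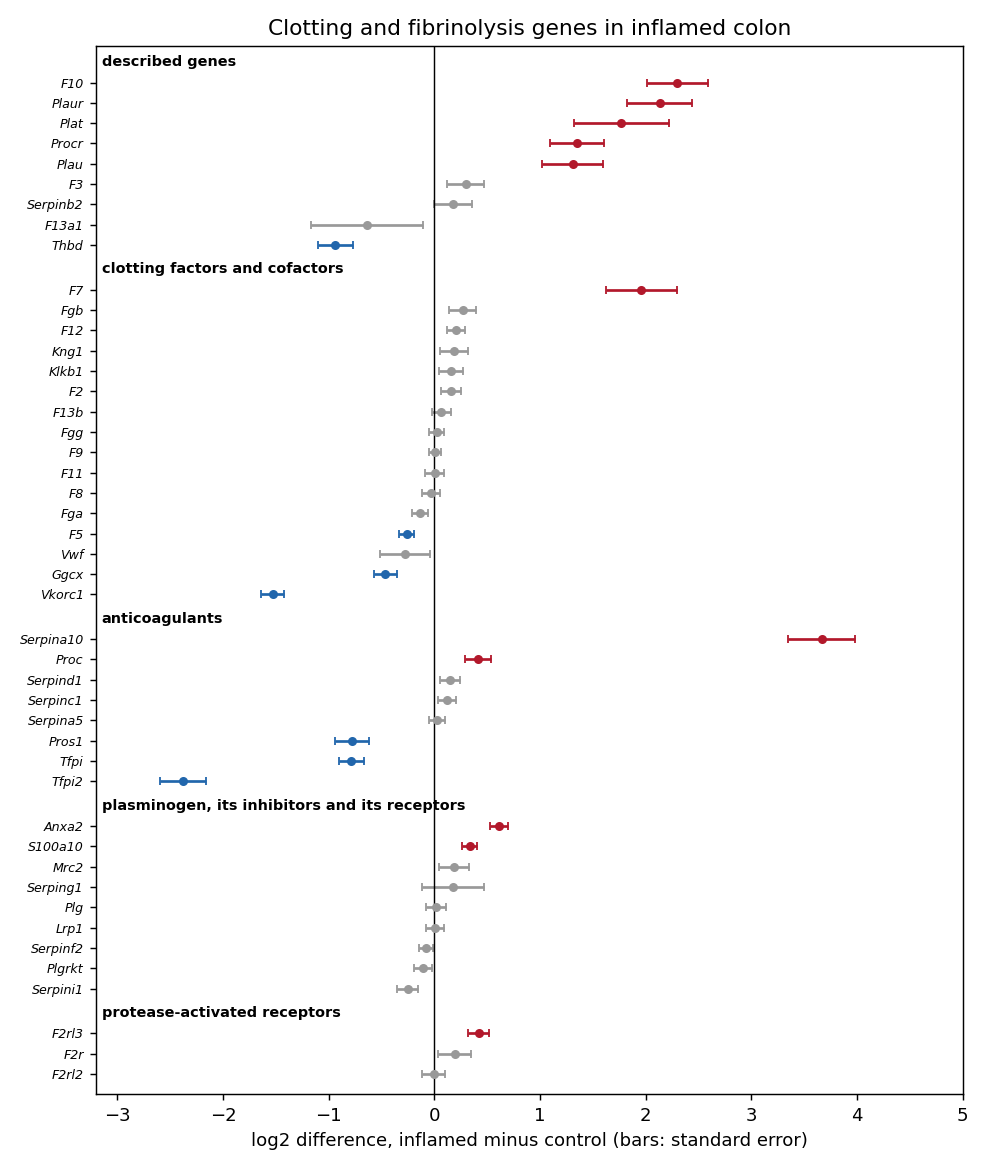
Log2 difference between inflamed and control colons (horizontal axis) for the 9 genes, at top, and 36 further genes of clotting and fibrinolysis in 4 lists. Bars are limma standard errors, and red and blue mark genes that passed at an adjusted p of 0.05 as higher and lower. Serpina10 at 3.67 and Tfpi2 at -2.38 are the extremes.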

How the data were processed

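Total RNA of snap-frozen distal colon from 10 mice was measured on 1-colour arrays. The values deposited by the authors are log2 expression per probe set, made, per the labels' processing notes, in Affymetrix Expression Console by RMA, which corrects background, quantile-normalizes and summarises probes; their versions are not given in the sources used here. RMA equalises the arrays (medians 5.36 to 5.40), so that a change is relative to all probe sets. Neither detection calls nor scan dates entered, and precision is limited by the number of arrays.

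Of 45101 probe sets, those annotated to 1 gene were kept, and each gene was read at its brightest probe set (mean over the 10 arrays). Tests used limma 3.58.1 (R 4.3.3) with lmFit and eBayes, two-sided, adjusted by Benjamini-Hochberg over 18193 genes with a threshold of 0.05, as 2 groups (inflamed, control) and as 3 groups sharing 1 spread. Probe sets were tested likewise over 34945. The fits were tested on simulated data. Promoter windows came from the RefSeq table, read with Python 3.11.15.

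All 9 genes are named. Of each further list, the 3 largest rises and falls past the threshold are named, with Vwf, Fga, Fgb, Fgg, Plg, Tfpi and Proc whatever their values; 1 further gene is not reported here. Of each marker list, the largest rise and fall or else the brightest gene is named, and the 2 nearest profiles of each gene that passed. Some further markers are named where a call changed without 1 colon or the signal was dim. The genes and lists were chosen with earlier results of these data known. Alternatives varied the probe set rule, a filter on dim genes (mean of at least 5), scaling, variance model, array weights, test, design, replicate block and the arrays used.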

Additional observations from a re-analysis of the deposited data

Results flagged for a closer look

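In 5 of 50 groups of 4 or 6 colons examined, 1 colon lay far from the others relative to the range of its group, where chance gives about 1 in 20. Thbd was at 6.17 in severe replicate 2, with the next inflamed colon at 6.76. At dim probe sets, Plat 1458553_at was at 4.20 in control replicate 3 (next 3.98) and F10 1418992_at at 3.21 in the same colon (next 3.12). Ggcx was at 4.80 in moderate replicate 1 (next 5.16), and Tfpi2 was at 8.54 in control replicate 1 (next 8.03).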

How the results depend on the processing

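Each comparison was computed under 21 alternatives (20 for Serpinb2, which a filter on dim genes left out). In inflamed against control the same 6 genes passed in all of them, with F13a1 as a seventh without severe replicate 1, and of 105 counts of calls 104 stayed within 1.5 times the reported count. The exception was severe minus moderate without moderate replicate 2, with 1 gene (Plat) in place of 0, so that leaving out single colons gave 0 to 1. Of 752 differences, 720 kept their direction and side of the threshold. Directions that turned belong to differences near 0 that did not pass. Without single colons, F13a1 in severe against control ran from -0.91 to 0.40, Serpinb2 in moderate against control from -0.16 to 0.12, and the severe minus moderate differences of F3 from -0.37 to 0.0777, F10 from -0.15 to 0.64, Thbd from -0.29 to 0.15 and Procr from -0.29 to 0.39. Serpinb2 in moderate against control was -0.031 with quantile normalization repeated and -0.0231 with array weights, and Procr in severe minus moderate was 0.0144 with arrays centred on their median. Plat in moderate against control passed with array weights (adjusted p = 0.0495). Whether the replicate numbers pair the mice cannot be settled with 3 or 4 arrays per group. Of 9 same-numbered pairs, 2 correlated over 0.1 (r -0.08 to 0.29 over the 9). These 2, severe 1 with moderate 1 (0.29) and severe 2 with moderate 2 (0.25), had the highest r of all pairs of colons from different groups. With the number as a replicate block, 6, 6, 4 and 0 of the 9 genes passed in the 4 comparisons and 12 of the 36 further genes. Plau in moderate against control was then 0.997 (adjusted p = 0.067), Proc was 0.39 (adjusted p = 0.0655), and Serpini1 passed in its place (-0.31, adjusted p = 0.029). The causes were not tested. With 3 or 4 arrays per group small differences can be missed, as the confidence intervals show, and at dim probe sets a lack of change says little, since signal over background was not measured.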
